A study of Rattus norvegicus with 9 samples.

Results

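Tags of 6 non-coding RNA families, the Y RNAs, vault RNA, 7SK, the RNA of the signal recognition particle (SRP) and the RNAs of RNase P and RNase MRP, were followed in small-RNA libraries of rat exosomes. A tag is 1 distinct read sequence with its read count, and its family is the Rfam family (a catalogue of structured RNAs) that the deposited files assign to it. The files give Rfam families by accession only, and the names used here are those the Rfam catalogue gives to these accessions. The 6 families held 2506 of 485728 distinct tags and 162369 of 67939794 assigned reads, which is 0.239% of reads and 0.516% of tags. Members were taken by their assignment alone, so no measured level chose them. Only 1 member tag, an RNase P tag of 78 reads, carried another name in another library, where it had 1 read.

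The exosomes came from primary macrophages of untreated rats, which were taken by peritoneal lavage and kept in RPMI-1640 with 10% fetal bovine serum. Control cultures received DMSO at 0.1% for 24 h, LPS cultures had 6 h of bacterial lipopolysaccharide at 100 ng/ml, and before the same LPS exposure the LPS+AS-IV cultures were given 24 h of 150 µM astragaloside IV, a plant saponin. Each group had 3 libraries, sequenced on the BGISEQ-500. LPS and astragaloside IV were also dissolved in DMSO per the labels, which state its final amount for Control alone. LPS cultures have no stated vehicle period to match the 24 h of astragaloside IV, so that difference cannot be told apart from treatment. Whether the libraries of a group are separate animals or cultures is not stated. The p-values therefore reflect the spread of these samples alone, and that spread may be technical.

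All 6 RNAs are made in animal cells by RNA polymerase III. Y RNAs are short hairpin RNAs whose 2 ends pair with each other and bind the Ro60 protein, vault RNA is part of the large cytoplasmic vault particle, and SRP RNA forms the scaffold that steers ribosomes to the endoplasmic reticulum. 7SK holds the transcription elongation factor P-TEFb in an inactive complex in the nucleus, RNase P trims the 5′ ends of tRNA precursors and RNase MRP takes part in the processing of ribosomal RNA. Fragments of Y, vault and SRP RNAs are well known from extracellular vesicles and body fluids.

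Libraries held from 3484099 to 9527483 assigned reads, and a count of 0 allowed up to 3 reads, or 0.315 to 0.861 RPM (reads per 1000000 assigned reads). The labels describe no molecular identifiers, so a read is not an independent molecule, and floors and Wilson intervals cover counting error only. The third LPS+AS-IV library stood apart. The median read count of its tags with over 5 reads was 332, against 31 to 88 in the other libraries, its TMM scaling factor was 2.61, against 0.533 to 1.97, and its tRNA tags averaged 30.5 nt, against 32.7 to 34.5 nt. Of 10 miRNAs listed as markers of blood cells, endothelium, liver and serum, 9 were found and 5 were in all libraries. They were miR-146a-5p (leukocytes), miR-150-5p (lymphocytes), miR-451-5p (erythroid cells), miR-126a-3p (endothelium) and miR-122-5p (liver and serum). The listed leukocyte miRNAs summed to 159 to 272 RPM in the Control libraries, 102 to 220 in LPS and 59.0 to 512 with LPS+AS-IV. In the same order the erythroid ones summed to 169 to 366, 99.7 to 511 and 35.6 to 2890, and miR-150-5p was at 164 to 280, 69.9 to 458 and 23.0 to 3310. The endothelial miRNA was at 42.2 to 112, 9.99 to 89.0 and 6.72 to 514, and miR-122-5p at 8.81 to 20.8, 26.3 to 59.7 and 9.03 to 306. Of the 5 listed leukocyte miRNAs 4 were found, and miR-146a-5p was the 1 of them in every library. The part of other cells and of the serum in the levels below was not tested.

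The tags that carried most Y RNA reads formed a ladder with a shared first base, and the following 4 are shown because their 3′ ends differ by single bases. Capitals mark the bases beyond the shortest of them.
Y RNA group 1, 30 nt: ggctggtccgaaggtagtgagttatctcaa
Y RNA group 1, 31 nt: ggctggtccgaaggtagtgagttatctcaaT
Y RNA group 1, 32 nt: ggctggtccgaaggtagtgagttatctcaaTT
Y RNA group 1, 33 nt: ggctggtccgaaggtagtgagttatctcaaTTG
These letters are those known for the 5′ end of Y1 RNA in mammals. The 30 nt tag had 27469 reads and the 31 nt tag had 27791 reads, both in all 9 libraries, and the 32 nt tag had 9577 reads in all 9. The 33 nt tag had 2885 reads in 8 libraries.

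Tags were joined into overlap groups when they held any 15 bases of the leading tag of the group, called its seed. The seed of the first Y RNA group and that of the third are set side by side because they can pair, and capitals mark their longest complementary run.
Y RNA group 1 seed: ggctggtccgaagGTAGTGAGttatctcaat
Y RNA group 3 seed: cttCTCACTACtgcacttgactagtctt
The run was 8 bases, at positions 14 to 21 of the group 1 seed and 4 to 11 of the group 3 seed, counted from the 5′ end. Among the 6 pairings of the seeds of groups 1 and 2 with those of groups 3, 5 and 7, the other 5 reached 4 to 6 bases. The group 3 letters are those known for the 3′ end of Y1 RNA, whose ends form the stem of the hairpin.

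Group 2 was a second set of Y RNA 5′ ends. Its 32 nt seed had the same first 11 bases as the group 1 seed and the same base at 26 of 31 positions. Its letters are those known for the 5′ end of human Y4 RNA, a Y RNA that mice and rats are known to lack. No rat genome was used here, so the species was not determined for these tags or for any other member tag, printed ones included. The letters of group 2 are not printed.

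The most widely shared stretch of the vault tags is shown because the 2 main vault groups meet in it, with the bases common to both seeds in capitals.
Vault core: ggttcgaGACCCGCGGGC
The core lay in 118 vault tags with 6333 reads, 48.8% of vault reads. It starts with letters of the B box, searched as GGTTCGA, any 2 bases and CC, an element inside many RNA polymerase III genes. On the forward strand the motif was present in 134 of 289 vault tags (46.4%), in 24.0% of tRNA tags, in 5.83% of all tags and in no tag of the other 5 families. Its reverse strand was found in no member tag and in 0.0348% of all tags. Of all tags of 30 nt, the length of the group 1 seed, 8.76% held it. Whole vault tags are not printed, and their species was not determined either.

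The best-covered SRP and 7SK tags among those with a family score of at least 20 are printed as examples of the 2 longer RNAs. Both families also held tags from other stretches.
Metazoa_SRP most read scoring tag: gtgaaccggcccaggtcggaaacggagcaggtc
7SK most read scoring tag: ggatgtgagggcgatctggctgcga
The SRP tag had 186 reads in 2 libraries and the 7SK tag, which carries the letters known for the 5′ end of 7SK, had 75 reads in 1 library. The overlap group of that 7SK tag held 120 of 3577 7SK reads.

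Y RNA was the most abundant of the 6 families in all 9 libraries and held 63.9% to 90.0% of member reads. Its level was 918, 1070 and 1640 RPM in the Control libraries, 1112, 1413 and 3347 under LPS and 1502, 2276 and 4235 with LPS+AS-IV. The groups overlapped, and 1 library of each treated group, LPS 3 and LPS+AS-IV 3, stood far above the other libraries of its group. In these, tRNA held 12.9% and 10.2% of assigned reads, against 29.6% to 62.9% in the other libraries. RPM is a share of assigned reads, and the part of the tRNA share in the Y RNA levels was not tested. The LPS 3 excess lay mainly in Y RNA group 1, at 2637 RPM against 833 in LPS 1 and 555 in LPS 2. For the third LPS+AS-IV library it lay mainly in Y RNA group 2, at 2162 RPM against 307 and 350 for the first and second. Group 1 of that library stood at 1343 RPM, between their 946 and 1636. The levels and fold changes of the Y RNA family include group 2, whose species was not determined. Vault RNA stood at 43.1, 242 and 55.3 in the Control libraries, 110, 208 and 199 under LPS and 184, 331 and 388 with LPS+AS-IV. The second Control library lay above the LPS range and inside that of LPS+AS-IV, while the other Control libraries lay below all 6 treated ones. SRP RNA stood at 47.8, 175 and 37.4 in the Control libraries, 62.3, 325 and 208 under LPS and 231, 86.6 and 191 with LPS+AS-IV. Here too the second Control library fell among the treated libraries.

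7SK, RNase P and RNase MRP, which act mainly in the nucleus, gave 3577, 638 and 1224 reads in all, against 12972 of vault RNA and 9438 of SRP RNA. This order did not hold in each library, since in Control 3 the 7SK level exceeded those of vault and SRP RNA, and in LPS+AS-IV 3 it exceeded that of SRP RNA. 7SK stood at 23.1, 83.9 and 60.1 RPM in the Control libraries, 12.5, 89.0 and 8.84 under LPS and 19.4, 12.5 and 247 with LPS+AS-IV. The highest of these levels rested on few sequences, since 1 tag of 22 nt gave 55.8% of its 7SK reads. RNase MRP stood at 9.14, 30.8 and 24.1 in the Control libraries, 8.38, 84.4 and 2.01 under LPS and 13.0, 9.01 and 29.3 with LPS+AS-IV. RNase P stood at 7.61, 21.5 and 6.33 in the Control libraries, 7.09, 91.6 and 1.68 under LPS and 0.840, 0.220 and 0.597 with LPS+AS-IV. The second LPS library, the shallowest, held the highest level of RNase P and RNase MRP and the highest SRP level of all libraries.

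**Figure D1:**
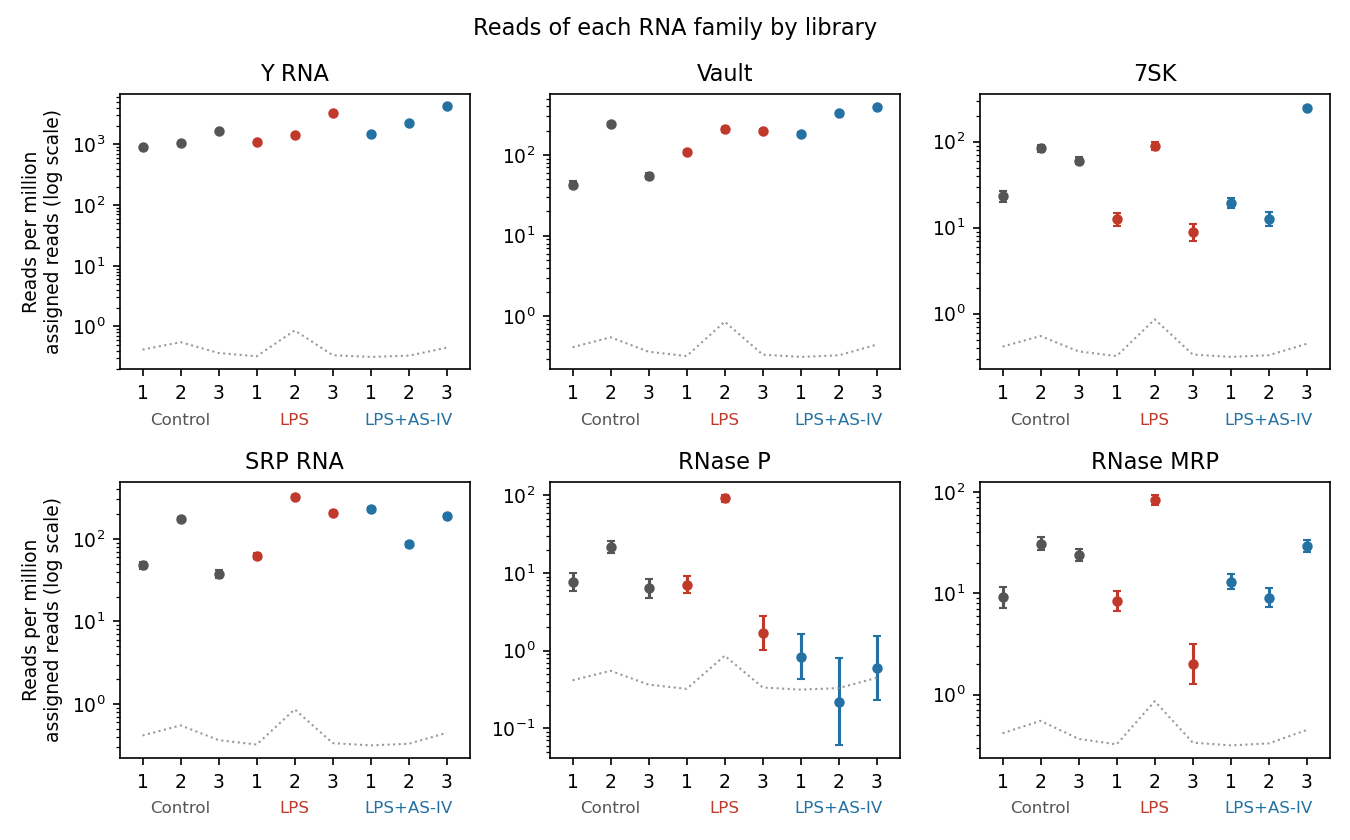
RPM (log axis) of each RNA family in the 9 libraries, with 95% Wilson intervals and a dotted line at the level of 3 reads. Y RNA lies between 918 and 4235 in every library, whereas RNase P falls to 0.220, below the dotted line, in LPS+AS-IV 2.

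The families differed in how often a tag came back in another library. Of the Y RNA tags 71.1% were seen in 1 library only, against 85.5% of vault tags, 95.4% of 7SK, 94.5% of SRP, 97.2% of RNase P and 94.2% of RNase MRP tags, and against 83.4% of all tags. The 16 member tags found in all 9 libraries were Y RNA tags. Tags seen in at least 2 libraries gave 87.0% to 97.3% of Y RNA reads and 44.0% to 83.1% of vault reads per library. For SRP the range was 2.32% to 51.8%, and for 7SK, RNase P and RNase MRP it started at 0% and reached 63.6%, 47.0% and 96.3%. A level of the last 4 families therefore often stood for different sequences in different libraries.

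**Figure D2:**
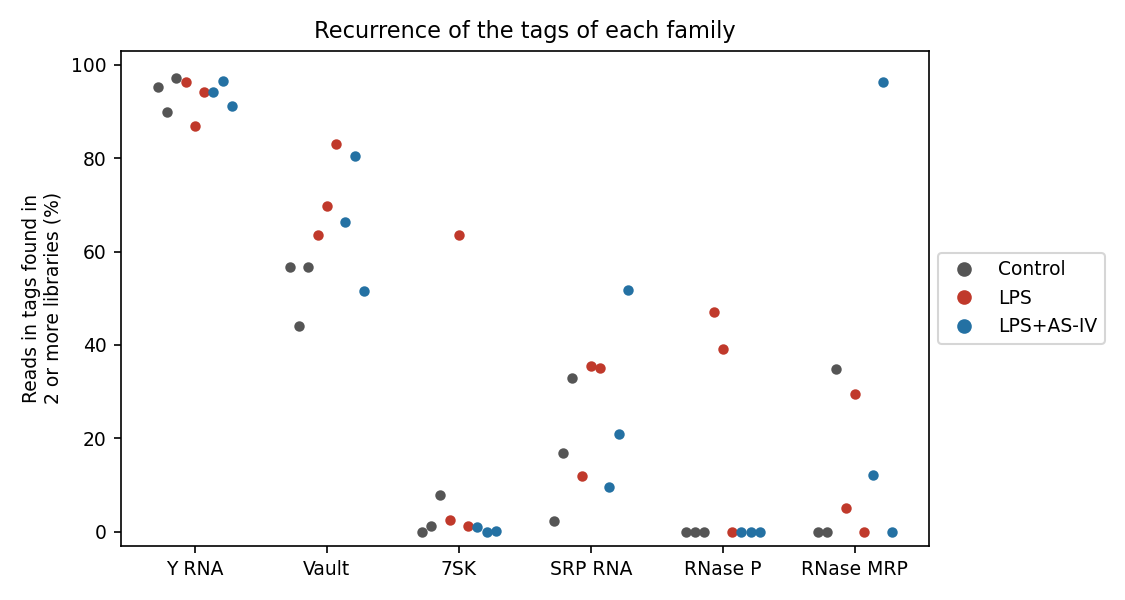
Share of the reads of each family (%) that lay in tags found in at least 2 of the 9 libraries, with 1 point per library coloured by group. The 9 Y RNA points lie between 87.0% and 97.3%, and most points of 7SK and RNase P lie near 0%.

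The assignment scores also differed between the families. The median score of Y RNA tags was 21.7 and that of vault tags 20.1, against 14.7 for all tags with an Rfam family. The median was 12.7 for SRP, 11.7 for 7SK, 9.30 for RNase MRP and 7.70 for RNase P. Tags scoring at least 20 held 79.1% to 90.7% of Y RNA reads and 5.78% to 62.8% of vault reads, and no RNase MRP tag reached that score. For RNase P and RNase MRP the family label thus rests on low scores, and their values are given by that label only. For 7SK the share of reads in tags scoring at least 20 ran from 0% to 91.2%. It was 0% in the third LPS+AS-IV library. For SRP RNA the share ran from 0% to 37.1%. Of tRNA reads 2.1% to 5.0% per library were in such tags, so a low share was not particular to the 6 families.

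Within Y RNA, group 1 held 494 tags and 59.6% of reads, group 2 held 483 tags and 27.1%, and group 3 held 217 tags and 8.13%. Group 1 made up 64.5%, 48.0% and 51.2% of Y RNA reads in the Control libraries, 74.9%, 39.3% and 78.8% under LPS and 63.0%, 71.9% and 31.7% with LPS+AS-IV. Group 2 made up 21.4%, 27.9% and 40.4% in the Control libraries, 19.8%, 37.7% and 11.6% under LPS and 20.5%, 15.4% and 51.0% with LPS+AS-IV. It exceeded group 1 in 1 of 9 libraries, the third of LPS+AS-IV. By group the share of group 1 was 54.6 ± 8.76% in the Control libraries, 64.3 ± 21.8% in LPS and 55.5 ± 21.1% with LPS+AS-IV (SD, n = 3), so the means differed by less than the SD of the treated groups. Group 3, the opposite end of the Y1 hairpin, made up 10.0 ± 3.90%, 7.32 ± 4.91% and 9.34 ± 1.98% of Y RNA reads.

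**Figure D3:**
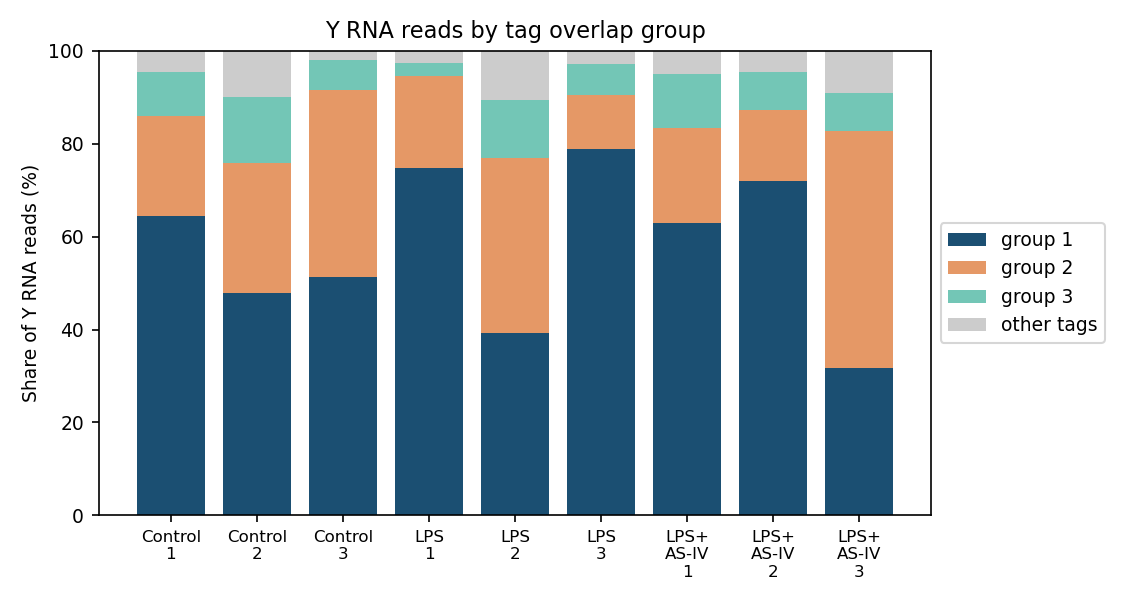
Share of Y RNA reads (%) in overlap groups 1 to 3 and in all other Y RNA tags, as stacked bars for the 9 libraries. Group 1 leads in 8 libraries, with 39.3% to 78.8%, and group 2 leads with 51.0% in the third LPS+AS-IV library.

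The 5′ end of group 1 was nearly fixed, while its 3′ end moved over a few bases. From 87.5% to 99.5% of its reads per library opened with the first 12 bases of the seed. Reads that matched the seed from base 1 over the whole shared length were 86.9% to 99.0%. Of these matching reads, 29.3% to 49.5% were 30 nt, 23.8% to 50.2% were 31 nt and 6.58% to 18.3% were 32 nt long. Together 71.6% to 96.4% fell within these 3 lengths. Those under 28 nt were 0.119% to 9.12%. Of group 2 reads, 96.7% to 99.3% opened with the first 12 bases of their seed. From 70.3% to 96.9% also matched it from base 1 over the whole shared length. Of those matching reads, 26.9% to 60.4% were 32 nt, 20.1% to 53.8% were 31 nt and 0.0578% to 10.4% were 30 nt long. The 32 nt share exceeded the 31 nt share in all libraries but LPS 1 and LPS 2. Those under 28 nt were 4.65% to 32.1%, a wider range than in group 1.

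**Figure D4:**
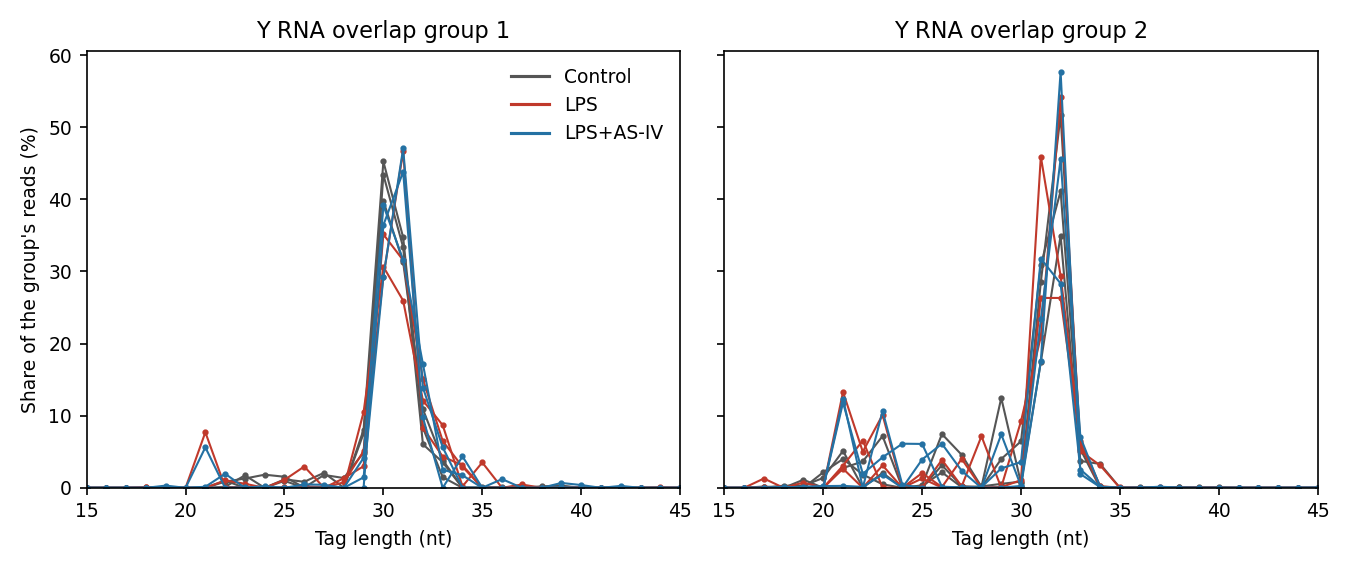
Share of the reads of Y RNA overlap groups 1 and 2 (%) by tag length in nt, with 1 line per library coloured by group. Group 1 peaks at 30 and 31 nt and group 2 at 31 and 32 nt, with smaller peaks near 21 nt in some libraries of both.

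The leading Y RNA tags were counted in every library. The 31 nt tag of group 1 had 1307, 876 and 2360 reads in the Control libraries, 3507, 405 and 6829 under LPS and 4011, 4589 and 3907 with LPS+AS-IV. The 30 nt tag of group 1 had 1635, 1095 and 3088 reads in the Control libraries, 2098, 583 and 7784 under LPS and 2475, 5465 and 3246 with LPS+AS-IV. The 30 nt tag led the 31 nt tag in every Control library, and the order was mixed in both treated groups. The 32 nt seed of group 2 had 424, 634 and 2382 reads, then 475, 466 and 1551, then 1500, 838 and 6268. Its 31 nt form had 207, 478 and 1436 reads, then 921, 470 and 707, then 500, 695 and 3340. Both group 2 tags were highest in the third LPS+AS-IV library, where the 2 group 1 tags were not at their highest. The 32 nt tag of group 1 had 356, 160 and 568 reads in the Control libraries, 586, 229 and 3336 under LPS and 1217, 2260 and 865 with LPS+AS-IV.

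Vault reads came from 2 neighbouring stretches. Group 1 held 165 tags and 55.9% of vault reads, group 2 held 78 tags and 37.3%, and the seeds of both share the 11 capital bases of the core. Group 4, a separate stretch, held 15 tags and 475 reads in 5 libraries. Group 1 made up 19.3%, 28.3% and 57.9% of vault reads in the Control libraries, 62.9%, 38.7% and 69.9% under LPS and 72.4%, 40.6% and 72.9% with LPS+AS-IV. The B box motif was in 15.8% to 57.7% of vault reads in the Control libraries, 38.4% to 69.7% in LPS and 39.2% to 67.4% with LPS+AS-IV.

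Single vault tags were patchy, unlike the vault total. The 30 nt group 1 seed was found in Control 3 with 123 reads, LPS 3 with 644, LPS+AS-IV 2 with 550, and had 0 in each of the other 6 libraries. The 25 nt group 2 seed was found in Control 2 with 17 reads, LPS 2 with 300, LPS 3 with 109, LPS+AS-IV 1 with 99 and LPS+AS-IV 2 with 405, and had 0 in the other 4. The vault tag in most libraries was 41 nt long and ran through the core. It had 0, 10 and 5 reads in the Control libraries, 123, 23 and 61 under LPS and 291, 30 and 43 with LPS+AS-IV. In RPM as in reads, its 3 Control libraries lay below the 6 others. The 41 nt tag passed the filter on low counts through its treated reads, so the direction of this separation was tied to that selection. Among the 61 member tags tested, 8.20% had groups that did not overlap in LPS against Control, 3.28% in LPS+AS-IV against LPS and 9.84% in LPS+AS-IV against Control. For all 17733 tested tags the shares were 9.95%, 2.82% and 10.5%. Against Control the log2 fold change of the 41 nt tag, tied to the same selection, was 3.44 (SE 3.19) for LPS and 3.98 (SE 3.27) for LPS+AS-IV, with an edgeR adjusted p of 1.0 in both. A 24 nt tag of group 2 had 32, 115 and 0 reads in the Control libraries, 21, 0 and 59 under LPS and 18, 706 and 340 with LPS+AS-IV. A 31 nt tag of group 1 had 57, 0 and 124 reads in the Control libraries, 77, 94 and 0 under LPS and 0 in each LPS+AS-IV library, and its edgeR adjusted p was 0.369 in LPS+AS-IV against LPS and 0.458 in LPS+AS-IV against Control. It passed the filter through its Control and LPS reads alone, so the direction of these LPS+AS-IV values was tied to that selection.

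SRP RNA spread over 422 tags, and 47 of its overlap groups were a single tag. Its group 3, to which the printed SRP tag belongs, held 115 tags and 34.7% of SRP reads in 8 libraries. It had 104, 193 and 0 reads in the Control libraries, 298, 323 and 666 under LPS and 842, 462 and 385 with LPS+AS-IV. Per depth the groups overlapped, since Control 2, at 35.4 RPM, lay above LPS 1. The count of 0 in Control 3 allows up to 0.365 RPM. The SRP tag of highest mean share, 33 nt long, had 166 reads in LPS 3 and 411 in LPS+AS-IV 3 and none elsewhere. The second, also 33 nt, was found in Control 2 with 34 reads, Control 3 with 13, LPS 2 with 33, LPS+AS-IV 2 with 51 and LPS+AS-IV 3 with 242.

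7SK had 131 tags in 56 overlap groups, and 39 of those groups were a single tag. Of its 5 leading tags 4 were seen in 1 library each, with 75, 923, 38 and 86 reads, and the other had 160 reads in LPS 2 and 1 read in LPS 1. The 36 RNase P tags formed 30 overlap groups and the 69 RNase MRP tags formed 39. The leading RNase P tags had 51, 14, 49 and 35 reads in 1 library each and 78 reads in 2 libraries. The leading RNase MRP tag had 69 reads in Control 3 and 78 in LPS+AS-IV 2, and a second had 193 reads in LPS+AS-IV 3 alone.

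Mean tag length was close to 30 nt for Y RNA in each group, at 29.9 ± 0.214 nt in the Control libraries, 30.0 ± 0.825 nt under LPS and 29.9 ± 0.849 nt with LPS+AS-IV (SD, n = 3). Vault tags averaged 28.8 ± 1.87, 30.6 ± 2.30 and 30.7 ± 4.29 nt, and SRP tags averaged 34.8 ± 1.26, 33.7 ± 1.76 and 33.3 ± 3.07 nt. In 18 exact permutation tests, two-sided, over the 6 families and 3 comparisons, each adjusted p was 1.0, and the smallest p that 3 against 3 libraries allow is 0.1. Y RNA tags were shorter than tRNA tags of the same library in 9 of 9 libraries, by 3.83 ± 1.26 nt (SD, n = 9, exact paired permutation p = 0.00391, adjusted over 2 families 0.00782). Without the third LPS+AS-IV library the mean difference, Y RNA less tRNA, was -4.13 nt. Vault tags were shorter than tRNA tags in 8 of 9 libraries, with a mean difference of -3.73 nt (exact paired permutation p = 0.0117), and with each distinct tag counted once this was -2.69 nt (exact p = 0.0547).

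Between groups, no member family passed the test of edgeR, a Benjamini-Hochberg adjusted p under 0.05 over the 1257 assigned names tested. LPS against Control gave 1 called name of 1257 (0.0796%), LPS+AS-IV against LPS gave 1 (0.0796%) and LPS+AS-IV against Control gave 2 (0.159%). These were rno-let-7a-5p in both comparisons with Control, rno-miR-3596a in the second of them and 1 Rfam family outside the 6, named here after their values were seen. With each tag sequence given 1 name in all libraries, the counts were 0, 1 and 0. At an unadjusted p under 0.05, 0 of 6 member families passed in LPS against Control, where 3.26% of names did, and 1 of 6 passed in LPS+AS-IV against LPS, where 5.49% did. None passed in LPS+AS-IV against Control, where 6.60% did.

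LPS against Control gave Y RNA a log2 fold change of 0.80 (SE 0.73, edgeR adjusted p = 1.0). LPS+AS-IV against LPS gave it 0.01 (SE 0.72, edgeR adjusted p = 0.998), and LPS+AS-IV against Control gave 0.81 (SE 0.73, edgeR adjusted p = 0.996). The approximate 95% interval of the first ran from -0.63 to 2.23, so a change of either sign lies within it. In the same order the values for vault RNA were 0.67 (SE 0.82), 0.64 (SE 0.82) and 1.31 (SE 0.83), with edgeR adjusted p of 1.0, 0.998 and 0.906. For SRP RNA they were 0.97 (SE 0.87), -0.00 (SE 0.86) and 0.96 (SE 0.87). For 7SK they were -1.09 (SE 1.13), 0.82 (SE 1.13) and -0.27 (SE 1.12), and for RNase MRP -0.09 (SE 1.55), -0.54 (SE 1.56) and -0.63 (SE 1.56). With library totals in place of TMM, the 7SK value in LPS+AS-IV against Control was 0.74 and the RNase MRP value in LPS against Control was 0.56, both of the other sign. Single libraries carried several of these values, and none passed by edgeR with any 1 library left out. In LPS against Control, Y RNA was at 0.12 without LPS 3, vault RNA at 1.66 and SRP RNA at 1.74 without Control 2, 7SK at -1.74 without LPS 2 and RNase MRP at -1.26 without LPS 2. In LPS+AS-IV against LPS, Y RNA was at 0.68 without LPS 3 and SRP RNA at -0.91 without LPS+AS-IV 1. RNase MRP was at 0.62 and 7SK at 1.47 without LPS 2. Without the LPS+AS-IV 3 library 7SK was at -0.22 against LPS and -1.41 against Control, with a group mean of 16.0 RPM in place of 93.0. In LPS+AS-IV against Control, vault RNA was at 2.27 and SRP RNA at 1.73 without Control 2, and SRP RNA was at 0.04 without LPS+AS-IV 1. The scaling by library totals moved the log2 fold changes of all tested names in LPS against Control by a median of 0.21.

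RNase P was the 1 family whose groups did not overlap. It passed the filter on low counts through its Control and LPS reads alone. The direction of its LPS+AS-IV separation and fold changes below was therefore tied to that selection. Its 3 LPS+AS-IV libraries held 8, 2 and 4 reads, against 55, 117 and 52 in Control and 66, 319 and 15 under LPS. For LPS+AS-IV its log2 fold change was -5.13 against LPS (SE 2.33, edgeR adjusted p = 0.894) and -4.39 against Control (SE 2.25, edgeR adjusted p = 0.774). The groups of 6.84% and 10.0% of all tested names did not overlap in these 2 comparisons, and 8.11% did not in LPS against Control, where no member family was among them. DESeq2 gave RNase P an adjusted p of 0.033 in LPS+AS-IV against LPS, where it called 1.99% of names, and it called no other member family. It called 0.954% of names in LPS against Control and 1.83% in LPS+AS-IV against Control, where the RNase P adjusted p was 0.098. Without 1 library at a time the log2 fold change in LPS+AS-IV against LPS ran from -6.24 without LPS+AS-IV 1 to -3.71 without LPS 2, and its edgeR adjusted p ranged from 0.501 to 0.915. Against Control it was -5.52 without LPS+AS-IV 1. Of the 36 RNase P tags 35 were seen in 1 library only, and the count in 1 LPS library, 319 reads of 9 tags, exceeded that of the other libraries.

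**Figure D5:**
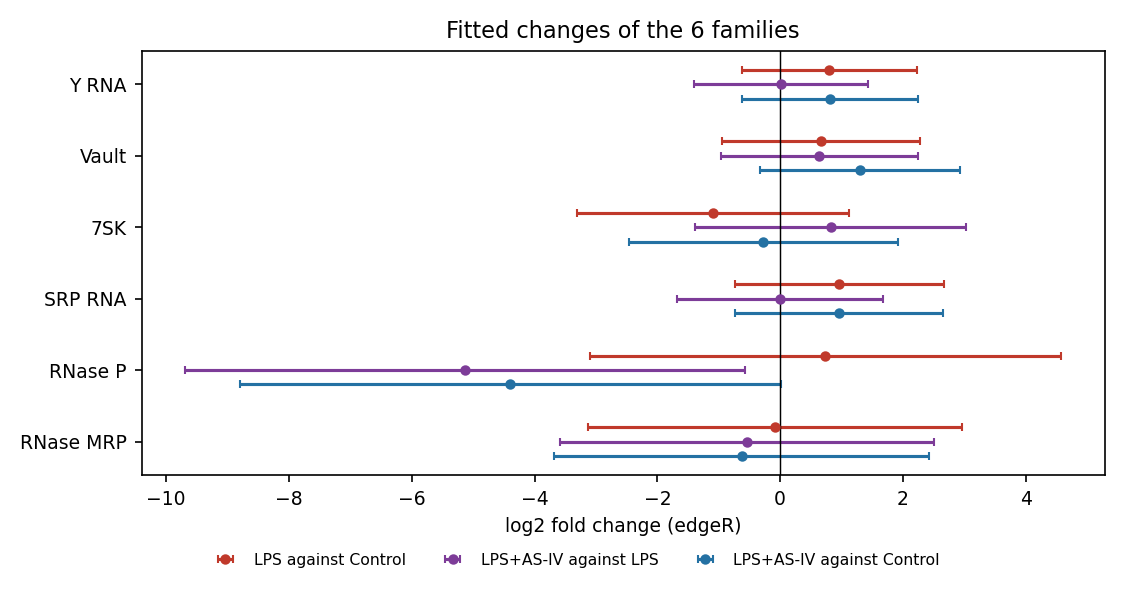
Fitted log2 fold changes (edgeR) of the 6 families in the 3 comparisons, with approximate 95% intervals. All intervals but that of RNase P in LPS+AS-IV against LPS include 0, and no family passed after adjustment.

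At the level of single tags, 61 of the 2506 member tags had enough reads to be tested, 46 of Y RNA, 13 of vault and 2 of SRP RNA. They passed the filter on low counts, so they do not stand for all members. None was called by edgeR among 17733 tested tags, and no tag of any family was, so the called share was 0.0% in LPS against Control, 0.0% in LPS+AS-IV against LPS and 0.0% in LPS+AS-IV against Control. At an unadjusted p under 0.05, 4, 3 and 4 of the 61 member tags passed in these comparisons, or 6.56%, 4.92% and 6.56%, against 6.40%, 8.97% and 9.10% of all tested tags. DESeq2 called 3, 0 and 4 of the 61, and it called 3.68%, 6.24% and 5.29% of the tags for which it gave an adjusted p.

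The tags that DESeq2 called were 4 in all, and their reads were uneven within groups. A 34 nt tag of Y RNA group 1 had 1, 0 and 0 reads in the Control libraries, 238, 4 and 674 under LPS and 1, 255 and 390 with LPS+AS-IV. A 21 nt tag of Y RNA group 1 had 0 reads in each Control library, 0, 147 and 0 under LPS and 2, 20 and 501 with LPS+AS-IV. A 24 nt tag of Y RNA group 4 had 0 reads in each Control library, 39, 0 and 138 under LPS and 28, 1 and 784 with LPS+AS-IV. A 32 nt vault tag of group 1 had 0 reads in each Control library, 0, 0 and 183 under LPS and 399, 174 and 0 with LPS+AS-IV. Each of the 4 was at 0 or 1 read in the Control libraries and at 0 to 4 reads in at least 1 library of each treated group. They passed the filter on low counts through their treated reads alone, so the direction of their calls against Control was tied to that selection.

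Among other RNAs made by RNA polymerase III, tRNA, selenocysteine tRNA, 5S ribosomal RNA, U6 and U6atac, 5 of 5 were tested and none was called. Their median log2 fold change was -0.04 in LPS against Control, -0.04 in LPS+AS-IV against LPS and -0.32 in LPS+AS-IV against Control. The same medians over the 6 member families were 0.70, 0.00 and 0.27, and over all tested names 0.15, 0.11 and 0.22. Of 7 other small nuclear RNAs, U1, U2, U4, U5, U11, U12 and U4atac, 7 were tested and none was called, with medians of -0.75, 0.12 and -1.90 and a smallest edgeR adjusted p of 0.692. These lists are described by their counts and medians, and the difference between them and the member families was not tested.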

How the data were processed

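Small RNA was measured in 9 exosome libraries, 3 each of Control, LPS and LPS+AS-IV, grouped by their titles. The deposited files give, per the file headers, 1 whole-number count per distinct tag of 15 to 45 nt with 1 assignment, not normalized. They also give a score, deposited by the authors, taken here, for Rfam tags, as a measure of the match to the family, since its meaning is not stated. The submitters' processing notes list Bowtie2 and Rnor_6.0, with no role. The sources used here do not give how the Rfam search, trimming and filters were run. A change in them would move which tags count as members. The deposited miRNA table was not used.

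Reads were summed per assigned name (2472 names, 1257 tested) and per tag (485728 tags, 17733 tested) over all 9 libraries. They were tested with edgeR 4.0.16 (R 4.3.3), quasi-likelihood test, TMM factors, library size the assigned reads, filterByExpr defaults and Benjamini-Hochberg adjusted p under 0.05. The steps were tested on simulated data. RPM values are reads per 1000000 assigned reads, without TMM, and intervals are 95% Wilson intervals. Overlap groups share at least 15 bases with a seed, the tag of highest mean share of its family. Tags named were up to 5 per family by mean share over libraries and any member tag past the threshold, and tags that DESeq2 called were added after their values were seen. Length tests were exact permutation tests (scipy 1.17.1). DESeq2 1.42.0, library totals, no filter, leaving out each library, a replicate block, 1 name per tag, Rfam families alone and distinct tags were alternatives. A score of at least 20, and the leaving out of libraries and the counting of distinct tags in the comparison with tRNA, were chosen after seeing the data. The families, lists and tests were chosen with earlier results of these data known.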

Additional observations from a re-analysis of the deposited data

How the results depend on the processing

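No member family passed under edgeR in any alternative run, and RNase P in LPS+AS-IV against LPS passed with DESeq2 alone. Of 543 alternative values of the log2 fold changes, 482 kept their direction and side of the threshold, 60 changed sign and 1 passed in addition. No fold change that changed sign had passed a test. Of 164 alternative mean length differences 136 kept direction and side, 27 changed sign and 1, vault against tRNA with each distinct tag counted once, missed the threshold (-2.69 nt). The RPM of a family moved by more than 1 SD in 17 of 90 alternatives. The cause was not tested for any change below. Low counts limit RNase P under LPS+AS-IV, where its 8, 2 and 4 reads lie near the 3 reads that a count of 0 allows.

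In 3 comparisons (first LPS against Control, then LPS+AS-IV against LPS, last LPS+AS-IV against Control) edgeR called 1, 1 and 2 names, DESeq2 called 11, 23 and 17, and edgeR with no filter called 7, 5 and 6. Library totals gave 3 names in LPS+AS-IV against LPS. With 1 name per tag the counts were 0 in both comparisons with Control, with Rfam families alone 0 and 1 in those, and with distinct tags 0, 0 and 0. Without 1 library at a time the counts of names ran from 1 to 9, from 0 to 5 and from 2 to 5. The highest were without LPS 2 or LPS+AS-IV 3 (9) in the first, and without Control 3 or LPS+AS-IV 1 (5) in each of the others, and 0 was without LPS+AS-IV 3. Leaving out any single library moved at least 1 of these counts by over 1.5 times. Against 0 tags by edgeR, DESeq2 called 419, 776 and 657 tags, no filter gave 1 tag in the last comparison, and leaving out libraries gave 0 to 8, 0 to 0 and 0 to 1 tags. The 8 were without LPS+AS-IV 3 and the 1 was without LPS+AS-IV 1 or LPS+AS-IV 3.

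Same-numbered libraries had correlations of 0.029, 0.16 and 0.0578 between Control and LPS, and 0.012, -0.078 and 0.0883 between Control and LPS+AS-IV. Between LPS and LPS+AS-IV they were 0.0797, -0.0193 and 0.141. Not every library correlated best with its own number. With few libraries per group, these values cannot decide whether same-numbered libraries share an animal or culture, which is not stated. With the replicate block the names called were 2, 2 and 2 and no tag was called, and the log2 fold change of Y RNA tag 4, the 31 nt tag of group 2, changed sign to 0.14 in LPS against Control and, in LPS+AS-IV against LPS, to -0.0295.

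Tags are numbered by their mean share of their family. With library totals the log2 fold change was 0.74 for 7SK in LPS+AS-IV against Control, 0.56 for RNase MRP, 0.10 for Y RNA tag 4 and 0.27 for SRP tag 2 in LPS against Control, and -0.25 for vault tag 1 and -0.84 for vault tag 2 in LPS+AS-IV against LPS. DESeq2 gave -0.045 for Y RNA and -0.046 for vault tag 2 in LPS+AS-IV against LPS. It gave 0.062 for Y RNA tag 4 in LPS against Control. In LPS+AS-IV against LPS, Y RNA was at -0.042 with no filter and at -0.036 with tags scoring at least 20, and SRP RNA was at 0.013 with 1 name per tag and at 0.48 with tags scoring at least 20. With distinct tags the mean length difference was -1.35 nt for vault, 0.078 nt for SRP and -1.58 nt for RNase P tags in LPS+AS-IV against LPS. It was 3.05 nt for RNase P and 0.21 nt for RNase MRP tags in LPS against Control.

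Leaving out libraries turned the sign of the following log2 fold changes. In LPS against Control the ranges were -0.70 to 1.26 for RNase P, -1.26 to 0.42 for RNase MRP, -0.56 to 0.77, -1.18 to 0.19 and -0.53 to 0.71 for Y RNA tags 2, 3 and 4, -0.73 to 0.84 for vault tag 3 and -0.98 to 1.09 for SRP tag 2. In LPS+AS-IV against LPS they were -0.41 to 0.68 for Y RNA, -0.22 to 1.47 for 7SK, -0.91 to 0.35 for SRP RNA, -1.06 to 0.62 for RNase MRP, -0.25 to 0.73, -0.68 to 1.14, -0.046 to 0.55 and -0.55 to 1.56 for Y RNA tags 1, 2, 4 and 5, and -0.17 to 1.48, -1.81 to 2.61 and -1.47 to 1.29 for vault tags 1, 2 and 5. In LPS+AS-IV against Control they were -1.41 to 0.13 for 7SK, -0.54 to 0.97, -0.15 to 1.19 and -0.30 to 0.95 for Y RNA tags 2, 3 and 4, and -0.035 to 3.96 for vault tag 4. Mean length differences that turned ran, in nt, from -0.164 to 0.563 for Y RNA, -0.473 to 3.94 for 7SK and -3.69 to 2.30 for RNase P in LPS against Control. They ran from -0.563 to 0.320, -2.13 to 2.15, -2.19 to 0.649 and -0.313 to 5.85 for Y RNA, vault, SRP and RNase P in LPS+AS-IV against LPS. They ran from -0.439 to 0.408, -0.317 to 3.97, -5.00 to 0.488 and -1.42 to 3.98 for Y RNA, vault, 7SK and RNase MRP in LPS+AS-IV against Control. No value was computed for a single tag where a group had no read of it left.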
